A study of Mus musculus with 12 samples.

Results

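The response of wild-type NE-4C cells to all-trans retinoic acid (RA) was followed in 6 of the 12 RNA-Seq libraries of the series, chosen by their labels alone. NE-4C cells are neural progenitors of the E9 mouse brain that lack p53 and so divide without limit, which makes every library compared here p53-deficient. The WT NO libraries (n = 3) came from wild-type cells harvested without induction. The WT RA libraries (n = 3) came from wild-type cells given 1 µM RA for 24 h, returned to growth medium and harvested at day 3 after induction. Each group was harvested over independent passages of a single line, and polyA RNA was sequenced. The other 6 libraries came from Faf2 KO cells, expanded from picked colonies after deletion of an exon of Faf2, under the same 2 conditions (KO NO and KO RA, n = 3 each). The sample titles mark the untreated cells only as not treated, and no untreated library is described as kept to day 3. RA and time therefore cannot be told apart in any value below.

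RA is made from vitamin A by dehydrogenases, carried in the cell by binding proteins and broken down by CYP26 enzymes. It enters the nucleus, binds the retinoic acid receptors (RARs) with their retinoid X receptor (RXR) partners and turns on genes through direct repeats of a short DNA hexamer. In the embryo, RA from the somites gives the hindbrain and anterior spinal cord their positional identity through the Hox genes, opposes the FGF and Wnt signals of the tail end and promotes exit of progenitors into neuronal differentiation.

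Each library held 20309362 to 27513718 estimated counts, and levels are given as CPM, counts scaled to a common library size after TMM. The counts had been scaled from TPM by the authors, so CPM is a level per length and can be set side by side between genes. The make-up of the libraries moved with the treatment. The 100 largest genes held 39.2 to 41.3% of counts in the WT NO libraries and 46.6 to 50.4% in the WT RA libraries, and ribosomal protein mRNAs held 17.4 to 20.3% against 23.0 to 25.03%. WT NO replicate 3 stood apart from the other 2 untreated libraries: 70.5% and 70.6% of genes differed from them by more than counting noise, against 44.8% between those 2. It held more Lefty1 (8.49, 5.1 and 133 CPM over the WT NO libraries), an inhibitor of Nodal, and more Tagln, a smooth muscle actin-binding protein (11.2, 2.03 and 47.5 CPM), and less Mest, an imprinted hydrolase (92.8, 182 and 4.53 CPM). Values without that library are given beside many of the results below.

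The cell type label was set against marker genes. The neural progenitor genes Nes (41.6, 45.6 and 61.9 CPM), Sox2 (43.1, 44.3 and 24.2 CPM), Otx2 (164, 163 and 123 CPM) and Cdh2 (39, 38.5 and 46.1 CPM) were present in the WT NO libraries, while Sox1, which defines neuroepithelium, stood at 0.601, 0.813 and 0.156 CPM. Genes of the pluripotent epiblast were also present, and Pou5f1 and Tdgf1 were higher than these neural markers. Pou5f1 (Oct4) reached 2137, 2277 and 1175 CPM in the WT NO libraries and 2807, 2144 and 2372 CPM in the WT RA libraries, Tdgf1, a Nodal co-receptor, 494, 486 and 563 and 760.4, 359.7 and 596 CPM, and Nanog 55.7, 43.6 and 59.6 and 92.3, 66.5 and 82.2 CPM. Trp53 mRNA was at 0.92, 0.665 and 0.375 CPM and 0.632, 0.491 and 0.145 CPM. Hbb-bs and Hbb-bt of red blood cells, S100b and Aqp4 of astrocytes and Neurod2 and Neurod6 of mature neurons were at 0 counts in all 6 libraries.

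Of 57010 genes in the table, 14705 passed the expression filter and were tested. A gene could pass through the libraries of a single group, and its direction was then fixed or favoured in advance. Beside the called Hox genes and Hoxaas2, this held through the treated libraries for Igfbp5, Nr2f1, Nr2f2, Cyp26a1, Crabp1, Pax3, Fabp7, Nfix, Nhlh2 and Ebf2. It held as well for Tfap2b, Lbx1, Scg2, Dcc, H19, Meox1, Sparcl1, Upk3b, Mir100hg and Mir99ahg, and for Acan through the untreated libraries. Among genes not called, it held through the treated libraries for Gad1, Gad2 and Stra6, for example. With RA, 316 genes rose and 229 fell at an adjusted p under 0.05 (edgeR quasi-likelihood test), which is 3.71% of the genes tested, 2.15% higher and 1.56% lower. These shares are the background for the numbers called in each list below. In all 545 the WT RA and WT NO libraries did not overlap, and 222 of the genes that rose and 85 of those that fell did so by more than 1 on the log2 scale. Across all genes tested, the WT RA libraries lay above every WT NO library in 15.8% and below in 15.2%. The genes that rose held more long noncoding RNAs, 43 of 316, than the genes that fell, 5 of 229, against 978 of the 14705 genes tested. The counts depended on single libraries, at 8 higher and 1 lower without WT NO replicate 1, 34 and 10 without WT NO replicate 2, 1075 and 1100 without WT NO replicate 3, 7 and 0 without WT RA replicate 1, 36 and 9 without WT RA replicate 2, and 10 and 0 without WT RA replicate 3. Without TMM scaling the median change over all tested genes moved, on the log2 scale, from -0.01 to -0.27 and the split became 264 higher and 1302 lower. The same 6 libraries in DESeq2 gave 5.4% of genes higher and 4.65% lower, and edgeR without WT NO replicate 3 gave 7.05% and 7.22%. The 7 genes called whichever library was left out were Col3a1, Igfbp5, Prrx1, Nr2f2, Cdh11, Fbxo15 and Gas5, and all 7 rose.

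**Figure D1:**
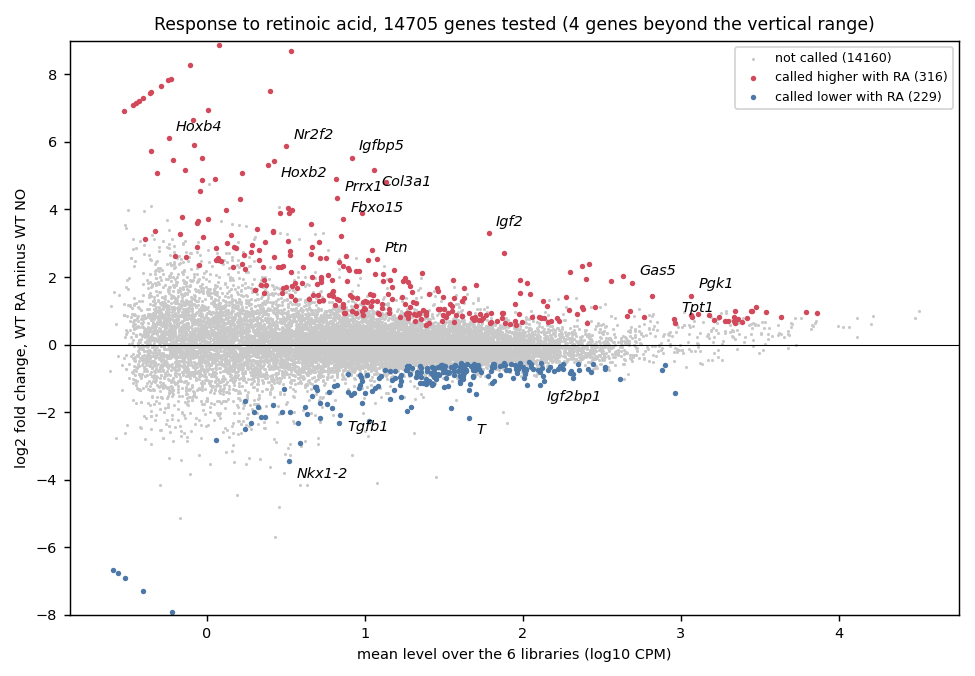
Mean level over the 6 wild-type libraries (horizontal axis, log10 CPM) against the log2 fold change of WT RA over WT NO (vertical axis) for the 14705 genes tested, with the 316 genes called higher in red and the 229 called lower in blue. Igfbp5, Col3a1, Nr2f2 and Hoxb2 stand out among the increases and Nkx1-2, T and Tgfb1 among the decreases, while the points at the far upper and lower left are genes with few or no counts in one group, whose fitted change is no measure of size, and 4 genes lie beyond the vertical range.

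The smallest adjusted p-values belonged to Igfbp5 and Col3a1. Igfbp5 passed the filter only through the treated libraries, so a rise was favoured in advance. Igfbp5, a secreted binding protein of insulin-like growth factors (chromosome 1: 72897091 to 72914043, minus strand, GRCm39), was at 0.248, 0.406 and 0.375 CPM in the WT NO libraries and 19, 14.7 and 14.8 CPM in the WT RA libraries, a log2 fold change of 5.54 ± 0.27 (SE) with an adjusted p of 0.000527. Col3a1, the chain of type III collagen (chromosome 1: 45350698 to 45395840, plus strand), went from 0.601, 0.739 and 0.5 to 20.5, 27.4 and 19.08 CPM (5.18 ± 0.26 SE, adjusted p = 0.000527). The lowest treated library held more than 20 times the highest untreated one for both genes. Prrx1, a homeobox factor of limb and head mesenchyme, went from 0.672, 0.591 and 0.625 to 10.8, 11.4 and 16 CPM (4.33 ± 0.26 SE, adjusted p = 0.00137), and Cdh11, a mesenchymal cadherin, from 1.24, 1.15 and 0.999 to 8.85, 9.18 and 9.54 CPM (adjusted p = 0.00325). Of 17 cadherins tested Cdh11 and Cdh3 rose and Pcdh1 fell. Fbxo15, an F-box protein known from embryonic stem cells, rose from 0.884, 1.18 and 1.03 to 15, 10.1 and 15.7 CPM (adjusted p = 0.00283).

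Genes known to respond to RA had mostly positive changes. Of 21 RA target genes tested, 6 rose and none fell, or 28.6% called higher against 2.15% of all genes. In 18 the log2 fold change was positive, against 7187 of all 14705 genes. The median log2 fold change was 1.21, or 1.00 without WT NO replicate 3. The 6 that rose were Cyp26a1, Nr2f1, Nr2f2, Tshz1, Hoxa3 and Hoxb4. All but Tshz1 passed the filter only through the treated libraries, and of these Nr2f1, Nr2f2 and the Hox genes had to differ. Other members low in the untreated cells were also favoured to rise, so nothing is read from these numbers or the median. Nr2f2 (COUP-TFII), an orphan nuclear receptor of the posterior brain and mesoderm (chromosome 7: 70001692 to 70016519, minus strand), was at 0.106, 0.0739 and 0.125 CPM in the untreated libraries and 7.63, 5.4 and 5.83 CPM in the treated ones (5.87 ± 0.38 SE, adjusted p = 0.00178). Its paralog Nr2f1 (COUP-TFI) went from 0.0354, 0.185 and 0.125 to 2.63, 5.74 and 5.88 CPM (5.31 ± 0.61 SE, adjusted p = 0.0126). Both genes were near or under the level of 3 counts, 0.0937 to 0.111 CPM, in the untreated cells, so their folds are read from few counts. Tshz1, a zinc finger factor of the hindbrain and trunk, rose from 5.02, 5.14 and 3.15 to 9.73, 11.4 and 9.44 CPM (adjusted p = 0.0428). Meis1 and Meis2, homeobox partners of Hox proteins, did not pass the test (10.3, 17.1 and 3.19 to 23.6, 30.2 and 25.9 CPM, adjusted p = 0.148, and 37.6, 44.6 and 4.9 to 60.3, 72.2 and 71.8 CPM, adjusted p = 0.294). Both were lowest in WT NO replicate 3 and passed without it (adjusted p = 0.0424 and 0.0225). None of the 11 genes of that homeobox class (the TALE genes) was called by edgeR in the fit of all 6 libraries, with 5 at an unadjusted p under 0.05, 3 of them higher, and 3 higher and 1 lower by DESeq2.

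Among 13 genes of RA metabolism, 2 rose, or 15.4% against 2.15% of all genes. Both passed the filter only through the treated libraries. Cyp26a1, the enzyme that clears RA (chromosome 19: 37686241 to 37689984, plus strand, GRCm39), was at 0.389, 0.296 and 0.375 CPM without RA and 1.51, 2.95 and 1.59 CPM with it (2.49 ± 0.48 SE, adjusted p = 0.0396), and Crabp1, an RA-binding protein of the cytosol, went from 0.0707, 0.776 and 1.25 to 7.15, 9.67 and 8.43 CPM (3.57 ± 0.70 SE, adjusted p = 0.0412). Stra6, the membrane receptor that takes up retinol, stood at 0.566, 0.222 and 1.53 and 3.7, 12.2 and 4.91 CPM without passing (adjusted p = 0.0594, and 0.0188 without WT NO replicate 3). The most abundant carriers were Fabp5 (672, 709 and 274 and 943, 746 and 931 CPM) and Crabp2 (25.7, 26.9 and 68.7 and 29.6, 59.1 and 52.2 CPM), neither of which was called. Of 12 receptors and coregulators tested, 1 fell and none rose. Rara, the most abundant of the RARs, was at 50, 38.6 and 35.4 and 44.2, 40.3 and 37.9 CPM. Rarb, the receptor gene that is itself an RA target, stood at 0.601, 0.406 and 1.06 and 1.7, 4.03 and 2.31 CPM, without overlap between the groups (1.94 ± 0.52 SE, adjusted p = 0.0785, and 0.0306 without WT NO replicate 3).

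The promoters of Rarb and Cyp26a1 hold the DNA repeat that RARs bind, and are shown because both are known targets of the receptors and in both genes the groups did not overlap. In the RefSeq promoter windows of GRCm38.p6, 250 bases before to 50 after a start site, a repeat of the hexamer AGGTCA, or of its variants AGTTCA or else GGGTCA or else GGTTCA, with a spacer of 5 bases (DR5) was searched on both strands. Bases up to the start site are printed 5′ to 3′ on the strand of the gene with the repeat in capitals.
Rarb (chr14:16575477-16575589, minus strand): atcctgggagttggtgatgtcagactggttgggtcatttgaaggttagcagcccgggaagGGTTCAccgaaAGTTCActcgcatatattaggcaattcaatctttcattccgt
Cyp26a1 (chr19:37697716-37697807, plus strand): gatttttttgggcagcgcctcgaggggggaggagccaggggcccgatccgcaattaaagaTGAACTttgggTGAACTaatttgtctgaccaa
The repeat starts 53 bases before the start site in Rarb and 32 bases before it in Cyp26a1, where it lies on the opposite strand. A DR5 was found in the promoters of 31 of 27025 genes, or 0.115%, and of 5 of the 10208 tested genes with a promoter, or 0.049%. Of the 200 genes that rose and had a promoter in the table, Cyp26a1 alone held one, and of 180 that fell, Blvrb, a biliverdin reductase (29.7, 29.7 and 38.2 to 18.1, 12.4 and 17.6 CPM, adjusted p = 0.0386), chosen here after its values were seen. With a spacer of 2 bases none of either set matched, and with 1 base only Rpl34 did among those that rose. These windows reach only 250 bases, and nothing follows from a promoter without a match.

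Hox genes of the Hoxa and Hoxb clusters went from almost no counts to measurable levels. The 39 Hox genes lie in 4 clusters whose order along the chromosome follows their order of expression along the body, with low numbers at the head end. Of these, 16 passed the filter and 23 did not. Hoxa2, Hoxa3, Hoxa5, Hoxb2, Hoxb3, Hoxb4 and Hoxb5 rose and none fell. These 7 stood at 0 to 0.177 CPM in the untreated libraries and passed the filter only through the treated ones, so they had to differ, and nothing is read from their number beside the 3.71% called over all genes. Hoxb2, which patterns rhombomeres of the hindbrain (chromosome 11: 96241351 to 96244838, plus strand), stood at 0.177, 0.111 and 0.0625 CPM in the WT NO libraries and 3.94, 7.86 and 3.81 CPM in the WT RA libraries (5.43 ± 0.55 SE, adjusted p = 0.0101). Hoxa2, the anterior limit gene of the hindbrain, went from 0.177, 0 and 0.0937 to 2.92, 4.32 and 2.51 CPM (adjusted p = 0.0256), Hoxa3 from 0.0354, 0.037 and 0.0937 to 1.8, 2.6 and 1.01 CPM (adjusted p = 0.0214), and Hoxb3 from 0, 0.0739 and 0.125 to 2.14, 2.06 and 2.36 CPM (adjusted p = 0.0259). In each the treated libraries all lay above the untreated ones.

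Hoxb4, Hoxa5 and Hoxb5, further along the clusters, reached lower levels. Hoxb4 was listed at 0, 0 and 0.0312 CPM and 1.17, 1.03 and 1.2 CPM (adjusted p = 0.0231), and Hoxa5 at 0.0707, 0 and 0 and 0.778, 0.736 and 1.3 CPM (adjusted p = 0.0424). Hoxb5 had no count in any untreated library and 0.875, 0.442 and 1.3 CPM in the treated ones, at least 25.5-fold higher against a floor of 3 counts over the group (adjusted p = 0.0383). Hoxaas2, an antisense RNA of the Hoxa cluster, likewise went from no count to 0.875, 0.687 and 0.819 CPM, at least 23.1-fold (adjusted p = 0.0319). The strand setting of the counting is not given in the sources used here, so reads of Hoxaas2 and of the Hoxa genes it overlaps could not be told apart. At the head end of its cluster, Hoxb1 did not pass the filter, with 0.187 to 0.369 CPM in the untreated and 0 to 0.337 CPM in the treated libraries. Hoxa4 did not pass the filter either, at no count in any untreated library and 1.22, 1.87 and 0.241 CPM in the treated ones. From Hoxb6 to Hoxb8 each gene was below the filter, with Hoxb7 reaching 0.681, 0.344 and 1.69 CPM in the treated libraries. Hoxb13, at the far end, was at 2.72, 7.83 and 21.4 and 10.7, 9.62 and 5.44 CPM and Hoxd13 at 0.424, 0.702 and 2.03 and 0.0973, 0.0982 and 0.0964 CPM, and neither passed (adjusted p = 0.811 and 0.0613). Every called Hox gene kept its direction in each alternative, and the number called among the 16 was 8 without WT NO replicate 3.

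**Figure D2:**
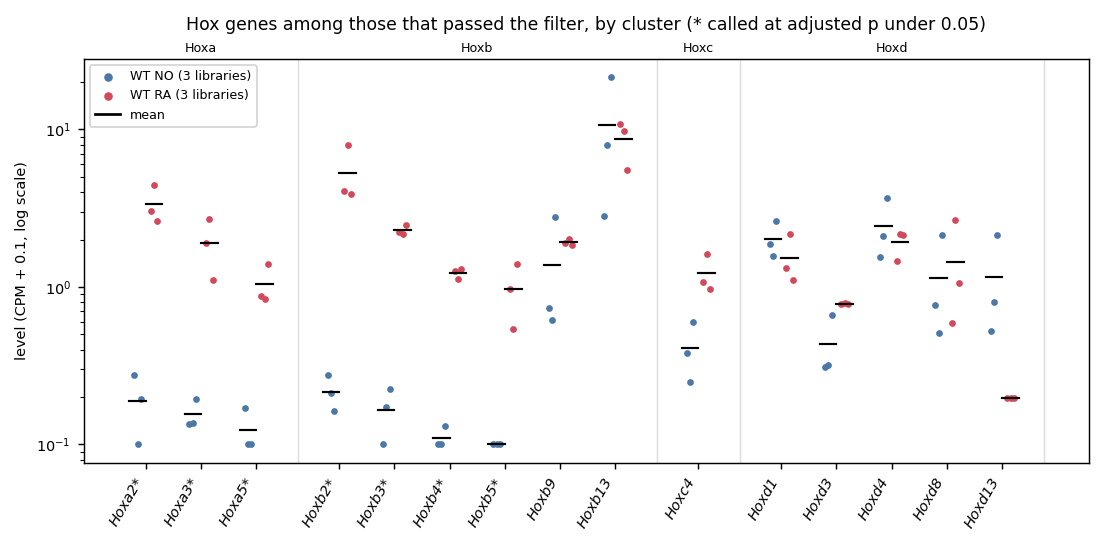
Level of 15 of the Hox genes that passed the filter in each wild-type library (vertical axis, CPM + 0.1 on a log scale), ordered within the clusters from head to tail (horizontal axis), with 3 untreated (blue) and 3 treated (red) libraries a gene and black bars at the means. The 7 genes marked with an asterisk, from Hoxa2 to Hoxa5 and Hoxb2 to Hoxb5, have treated libraries clear of the untreated ones, while those of Hoxb9, Hoxb13, Hoxd1, Hoxd4 and Hoxd8 overlap.

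Other genes of position along the neural tube were less clear. None of the 11 forebrain and midbrain factors was called by edgeR or DESeq2, with 3 at an unadjusted p under 0.05 in edgeR, and their median log2 fold change was -0.55, or -0.35 without WT NO replicate 3. Otx2, the head organizer gene of forebrain and midbrain, was at 164, 163 and 123 and 137, 108 and 128 CPM (adjusted p = 0.353), Pax6 at 9.34, 8.79 and 4.22 and 12, 14.8 and 15 CPM (adjusted p = 0.129), and En1 at 6.72, 8.02 and 14.7 and 4.72, 6.43 and 6.89 CPM (adjusted p = 0.238). Among 9 factors of the hindbrain and cord, 2 rose and 1 fell. Irx3, a factor of intermediate neural tube, rose from 0.601, 0.591 and 0.406 to 2.14, 2.8 and 3.42 CPM (adjusted p = 0.0297), and Pax3, a dorsal neural tube factor, from 0.106, 0.0739 and 0.187 to 0.632, 2.06 and 1.01 CPM (adjusted p = 0.04996). Msx1, a homeobox target of BMP signals in the roof of the tube, fell from 8.63, 4.14 and 3.44 to 1.02, 1.62 and 1.4 CPM (adjusted p = 0.04996). Egr2 (Krox20), which marks rhombomeres, was at 59.8, 35 and 20.2 and 18.9, 13.3 and 20.2 CPM (adjusted p = 0.122, and 0.0217 without WT NO replicate 3).

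Genes of the progenitor state changed in part. Of 22 tested, Sox9 and Fabp7 rose and Ccnd1 fell, or 13.6% called against 3.71% of all genes. Sox9, a factor of neural stem cells, went from 0.424, 0.628 and 0.437 to 3.7, 3.19 and 3.13 CPM (2.74 ± 0.36 SE, adjusted p = 0.0189), and Fabp7, a lipid-binding protein of radial glia, from 0.389, 0.517 and 0.5 to 5.11, 2.06 and 7.18 CPM (adjusted p = 0.0256). Ccnd1 (cyclin D1) fell from 38.4, 35.9 and 13.6 to 6.32, 8.1 and 8.19 CPM (-1.96 ± 0.38 SE, adjusted p = 0.0396). Its lowest untreated library was replicate 3, and its log2 fold change without that library was -2.30. Sox1 was at 0.601, 0.813 and 0.156 and 2.24, 2.99 and 4.29 CPM and Sox2 at 43.1, 44.3 and 24.2 and 95, 65.8 and 70.2 CPM, in both with no overlap of the groups, and neither passed in edgeR with WT NO replicate 3 (adjusted p = 0.0595 and 0.0641 with it, 0.0244 and 0.0298 without). In DESeq2 with all 6 libraries the adjusted p was 0.00237 for Sox1 and 0.00277 for Sox2. Nes, the intermediate filament of progenitors, was at 41.6, 45.6 and 61.9 and 34.5, 40.4 and 41.3 CPM (adjusted p = 0.273). Of 13 radial glial and astroglial genes tested, 4 rose and 1 fell, or 38.5% called against 3.71% of all genes. Those that rose were Sox9, Fabp7 and the nuclear factors Nfia (1.31, 1.11 and 0.437 to 4.18, 5.11 and 4.72 CPM, adjusted p = 0.0386) and Nfix (0.389, 0.48 and 0.25 to 2.19, 2.5 and 1.59 CPM, adjusted p = 0.0382), which act in gliogenesis. Fabp7 and Nfix passed the filter only through the treated libraries. Hopx, a marker of outer radial glia, fell (4.1, 2.81 and 3.84 to 0.778, 0.736 and 0.915 CPM, adjusted p = 0.0259). Aqp4 and S100b of that list were at 0 in all 6 libraries.

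Among 19 proneural factors and their partners, Nhlh2 and Ebf2 rose from a low base and none fell. Both passed the filter only through the treated libraries, so nothing is read from their number. Nhlh2, a helix-loop-helix factor of newborn neurons, was at 0, 0 and 0.0312 CPM without RA and 1.56, 1.91 and 2.6 CPM with it (adjusted p = 0.0133), and Ebf2, a factor of migrating neurons, went from 0.318, 0.185 and 0.5 to 2.43, 1.37 and 2.22 CPM (adjusted p = 0.0457). Neurog2 was below the filter. Of 22 factors of neuronal subtypes, Tfap2b, an AP-2 factor of dorsal neurons and neural crest (0, 0 and 0.0625 to 4.04, 8.44 and 2.55 CPM, adjusted p = 0.0144), and Lbx1, a factor of dorsal interneurons (0, 0 and 0.0625 to 1.85, 1.42 and 1.64 CPM, adjusted p = 0.0254), rose. Tfap2b and Lbx1 also passed the filter only through the treated libraries. Tfap2b had 2 counts in the untreated group and its ratio was 218 with a 95% counting interval of 59.9 to 1809. Lmx1b and Gata3 were not called (adjusted p = 0.134 and 0.225). No member of the Notch list was called, of 22 tested, in the fit of 6 libraries or without WT NO replicate 3. With DESeq2 also none was called, and 2 of the 22 were higher at an unadjusted p under 0.05.

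Neuronal genes changed in both directions. Of 34 genes of the neuronal cytoskeleton and axon, 6 rose and 1 fell, or 20.6% called against 3.71% of all genes. The list median was 0.18, or -0.08 without TMM scaling and 0.40 without WT NO replicate 3. Tubb2b, a tubulin of newborn neurons, rose from 64.3, 65.8 and 43.4 to 157, 171 and 162 CPM (1.498 ± 0.18 SE, adjusted p = 0.0133), Map2, the dendritic microtubule protein, from 2.65, 4.8 and 2.37 to 12.4, 15.4 and 8.62 CPM (adjusted p = 0.0362), and Dpysl3, a growth cone protein, from 11.3, 23.4 and 10.6 to 58.3, 48.6 and 64.8 CPM (adjusted p = 0.0287). Gap43, Ncam1 and Tubb2a rose as well, by 0.91 to 1.41 on the log2 scale. Ina, a neuronal intermediate filament, fell from 56.9, 37.2 and 41.3 to 18.8, 17.6 and 19.9 CPM (-1.27 ± 0.18 SE, adjusted p = 0.0232). Tubb3 was at 25.2, 22 and 31.7 and 28.6, 32.3 and 34 CPM with overlapping groups (adjusted p = 0.392). Dcx, a microtubule protein of migrating neurons, was at 1.8, 2.11 and 0.156 and 6.61, 7.41 and 6.41 CPM (adjusted p = 0.102, and 0.00923 without WT NO replicate 3), and Rbfox3 (NeuN) at 0.531, 1.81 and 4.87 and 0.292, 0.442 and 0.337 CPM (adjusted p = 0.0933).

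Synaptic genes moved both ways, 3 higher and 2 lower of 29, or 17.2% called against 3.71% of all genes. Scg2, a granin of secretory vesicles, rose from 0.0707, 0.148 and 0.843 to 5.69, 7.27 and 3.42 CPM (adjusted p = 0.045), and Cplx2 (complexin 2) rose from 2.44, 2.07 and 2.16 to 6.52, 9.67 and 7.18 CPM (adjusted p = 0.0211). Its paralog Cplx1 fell from 2.58, 2.59 and 2.84 to 0.778, 0.786 and 0.915 CPM (adjusted p = 0.0422), and Syn1 (synapsin 1) fell from 4.42, 4.47 and 4.44 to 2.14, 1.37 and 1.78 CPM (adjusted p = 0.04996). Gad1 and Gad2, the GABA-making enzymes, were at 0, 0 and 0.999 and 0.0707, 0 and 0.25 CPM in the untreated libraries. In the treated ones they were at 1.65, 0.884 and 0.675 and 1.22, 0.835 and 0.819 CPM. They passed the test only without WT NO replicate 3 (adjusted p = 0.519 and 0.105 with it, 0.0213 and 0.0356 without). Both met the expression filter only through the treated libraries. Without replicate 3 Gad1 had no untreated count, so its rise was then fixed in advance. Of 52 axon guidance genes, Dcc, the netrin receptor (0, 0.037 and 0 to 0.632, 1.13 and 0.867 CPM, adjusted p = 0.0298), and Epha7 (2.37, 2.77 and 4.25 to 6.9, 8.54 and 7.81 CPM, adjusted p = 0.049) rose, and Sema3a, a repellent of axons, fell (13.3, 12.6 and 14.3 to 7.68, 6.38 and 7.52 CPM, adjusted p = 0.0383). The share of guidance genes called was 5.77%, near the 3.71% of all genes. In bulk RNA, a change in the share of cells of one type and a change in RNA per cell cannot be told apart.

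T, Nkx1-2 and Wnt3 were among the genes that fell. T (Brachyury), the T-box factor of the primitive streak and tail bud (chromosome 17: 8653062 to 8661328, plus strand), was at 83.6, 67.9 and 74.2 CPM without RA and 13.6, 23.3 and 13.4 CPM with it (-2.17 ± 0.24 SE, adjusted p = 0.011). Nkx1-2, a homeobox factor of the caudal epiblast, fell from 5.27, 4.47 and 8.62 to 0.486, 0.687 and 0.482 CPM (-3.46 ± 0.38 SE, adjusted p = 0.011), and Wnt3, the ligand that starts the streak, from 8.84, 7.35 and 13.1 to 3.06, 2.75 and 2.07 CPM (-1.89 ± 0.29 SE, adjusted p = 0.0256). In all 3 genes each treated library lay below each untreated one. Prtg (protogenin), an adhesion receptor of the early neural plate, fell from 63.6, 67.7 and 66.3 to 22.4, 25.1 and 30.8 CPM (adjusted p = 0.0114).

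The pluripotency list changed in both directions. Of 26 members tested, 3 fell and 2 rose, and the list median was -0.02. Without WT NO replicate 3, 6 fell and 4 rose, with a median of -0.29. Those that fell were Lin28a, Lin28b and Trim71, and those that rose were Klf2 (7.89, 11 and 3.217 to 37.7, 22.6 and 25.8 CPM, adjusted p = 0.04996) and Nr0b1 (6.19, 6.84 and 1.97 to 20.1, 22.3 and 20.7 CPM, adjusted p = 0.0422), transcription regulators of naive stem cells. Pou5f1, Tdgf1 and Utf1 were not called (adjusted p = 0.401, 0.758 and 0.974), and Pou5f1 and Utf1 were lowest in WT NO replicate 3.

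Lin28a and Lin28b encode RNA-binding proteins that block the maturation of the let-7 microRNAs, and both are themselves let-7 targets, as is Trim71 (Lin41), a repressor of mRNAs. Lin28b fell from 19.3, 19.2 and 26.7 to 6.81, 6.68 and 7.9 CPM (-1.61 ± 0.20 SE, adjusted p = 0.0144), Lin28a from 292, 264 and 209.5 to 146, 122 and 155 CPM (-0.86 ± 0.17 SE, adjusted p = 0.0404), and Trim71 from 41, 41.3 and 30.5 to 18.5, 13.7 and 18.2 CPM (-1.16 ± 0.19 SE, adjusted p = 0.0276). Igf2bp1, an mRNA-binding protein of embryonic cells, fell from 174, 188 and 174 to 78.6, 84 and 71.2 CPM (-1.20 ± 0.12 SE, adjusted p = 0.0101). In all 4 genes each treated library lay below each untreated one. At the same time the host transcripts of 2 microRNA clusters rose. Mir100hg (chromosome 9: 41238321 to 41628290, plus strand) went from 0.106, 0.628 and 0.5 to 5.88, 7.95 and 4.87 CPM (3.90 ± 0.57 SE, adjusted p = 0.0232). Mir99ahg (chromosome 16: 76970521 to 77586092, plus strand), looked up after Mir100hg was seen, went from 0.495, 0.259 and 0.281 to 2.43, 2.55 and 2.84 CPM (2.90 ± 0.44 SE, adjusted p = 0.0251). These are levels of the long polyadenylated hosts, and the mature microRNAs were not measured.

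The microRNAs that lie within these hosts share seeds across the 2 clusters, which is why they are shown. Mature sequences are from RefSeq, with the seed (bases 2 to 8) in capitals, and each hairpin lies within the host on the same strand in GRCm39.
mmu-let-7a-5p (Mirlet7a-2, in Mir100hg): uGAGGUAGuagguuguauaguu
mmu-let-7c-5p (Mirlet7c-1, in Mir99ahg): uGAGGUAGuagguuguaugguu
mmu-miR-100-5p (Mir100, in Mir100hg): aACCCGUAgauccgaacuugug
mmu-miR-99a-5p (Mir99a, in Mir99ahg): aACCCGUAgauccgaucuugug
mmu-miR-125b-5p (Mir125b-1 in Mir100hg and Mir125b-2 in Mir99ahg): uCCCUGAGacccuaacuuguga
The letters opposite the let-7 seed, CTACCTC, were searched in the 3′ UTRs of the canonical transcripts (GENCODE, GRCm39) of 12033 coding genes tested. They occur in 11.2% of 214 genes that fell, 10.4% of 251 that rose and 11.9% of all, at 0.108, 0.0723 and 0.0735 sites per kb, with median 3′ UTR lengths of 1204, 1095 and 1397 bases. With the further base of an 8-base match (CTACCTCA) the shares were 5.14, 4.38 and 4.06%. Of 195 genes with 2 or more sites 7 fell and 4 rose. Of 35 with 3 or more 4 fell and none rose, and of 9 with 4 or more 4 fell and none rose. Among all 12033 genes searched, 214 fell. The 4 that fell with 4 or more sites were Lin28b, Trim71, Igf2bp1 and Igdcc3, a receptor of the immunoglobulin family (25, 21.9 and 19.7 to 9.09, 13.4 and 11.5 CPM, adjusted p = 0.0415), named after its values were seen. Their 3′ UTRs were 1695 to 6337 bases long, and genes were not matched for that length. The site nearest the stop codon in each of the RNA regulators is given below with the match in capitals, to show what the search found, and the count from the start of the 3′ UTR.
Lin28b, base 36 of 4515: acccgggcgggaagtCTACCTCatgcaag
Lin28a, base 909 of 2775: gcacagcctgttgaaCTACCTCatttttg
Trim71, base 166 of 5512: aacattgcctaagtcCTACCTCagcttaa
Igf2bp1, base 1715 of 6337: gctgtgcgaagtaaaCTACCTCaaggtgt
For the miR-125 seed the shares with a match of 7 bases were 21.0% of the genes that fell, 13.9% of those that rose and 17.5% of all. A match of letters is a description of the sequence, and no test was made of these shares.

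**Figure D3:**
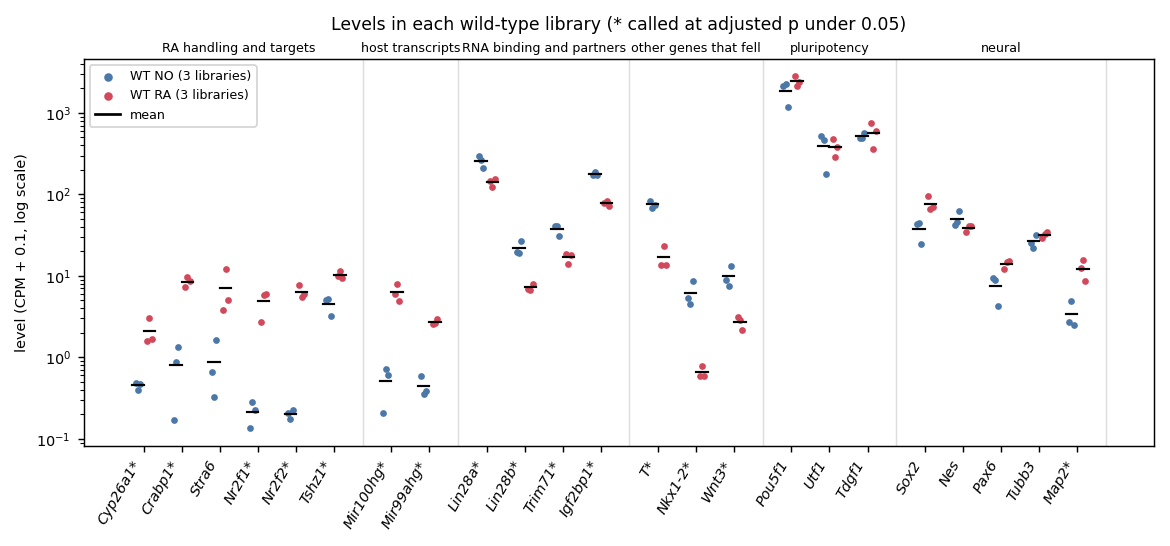
Level of genes of RA handling, microRNA hosts and their RNA-binding partners, T, Nkx1-2 and Wnt3, and pluripotency and neural genes in each wild-type library (vertical axis, CPM + 0.1 on a log scale), with 3 untreated (blue) and 3 treated (red) libraries a gene, black bars at the means and an asterisk at genes with an adjusted p under 0.05. The hosts Mir100hg and Mir99ahg lie higher and Lin28a, Lin28b, Trim71, Igf2bp1, T, Nkx1-2 and Wnt3 lower in every treated library, while the groups of Pou5f1, Utf1 and Tdgf1 overlap.

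Of the signalling lists, 4.17% of Wnt, 9.30% of TGF-beta and BMP, 4.35% of FGF and 15.4% of Hedgehog genes were called, against 3.71% of all genes. Of 48 Wnt genes tested, Wnt3 and the receptor Lrp5 (41.4, 38.2 and 36.3 to 24.7, 25.6 and 24.2 CPM, adjusted p = 0.04) fell and none rose. Of 43 genes of the TGF-beta and BMP families, Tgfb1, the cytokine (10.6, 13.1 and 9.99 to 2.63, 2.7 and 2.6 CPM, -2.09 ± 0.20 SE, adjusted p = 0.0101), and Msx1 fell, and Bmp4 (4.24, 3.7 and 3.72 to 9.24, 12.8 and 7.32 CPM, adjusted p = 0.0383) and Ltbp1, which stores latent TGF-beta in the matrix (4.35, 3.92 and 4.62 to 11.8, 13.9 and 9.68 CPM, adjusted p = 0.0216), rose. Nodal was at 64.3, 53.9 and 93.2 and 47.8, 33.7 and 34.4 CPM (adjusted p = 0.0804). Among 23 FGF genes Spry1, a feedback inhibitor, was the one called (5.06, 4.69 and 5.65 to 9.92, 10.4 and 8.96 CPM, adjusted p = 0.0422), while Fgf8 stood at 52.2, 59.5 and 29.8 and 55.7, 30.2 and 37.9 CPM (adjusted p = 0.748). Of 13 Hedgehog genes tested, 1 rose and 1 fell, and the one that rose was Boc, a co-receptor (1.03, 0.776 and 1.09 to 3.74, 3.44 and 3.76 CPM, adjusted p = 0.0293).

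Of 12 genes of the IGF system, pleiotrophin and midkine tested, Igfbp5, Igf2 and Ptn rose and none fell. That is 25% called higher, against 2.15% of all genes. Of these, Igfbp5 passed the filter only through the treated libraries. Igf2, the imprinted fetal growth factor (chromosome 7: 142204503 to 142220694, minus strand), went from 7.99, 6.06 and 19.4 to 105, 139.8 and 87.7 CPM (3.31 ± 0.44 SE, adjusted p = 0.0193), highest among the untreated libraries in replicate 3 and 3.98 without it. H19, the noncoding RNA expressed from the other parental copy of that locus, rose from 0.177, 0.185 and 0.25 to 1.12, 1.28 and 1.4 CPM (adjusted p = 0.0386). Ptn (pleiotrophin), a secreted factor of radial glia, rose from 3.78, 3.33 and 3.53 to 20.9, 15.4 and 25.3 CPM (2.53 ± 0.23 SE, adjusted p = 0.00753), and Mdk (midkine), a related factor itself known for its response to RA, was at 377, 433 and 425 and 548, 575 and 525 CPM (adjusted p = 0.0945, and 0.0412 without WT NO replicate 3). Of the 19 imprinted genes tested, Igf2 and H19 rose and Phlda2, a placental growth restrictor, fell (19.8, 15.2 and 16.2 to 5.06, 7.41 and 9.54 CPM, adjusted p = 0.0465).

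Mesenchymal genes were higher in part. Of 26 tested, Col3a1, Prrx1, Col1a2 and Meox1 rose and none fell, or 15.4% against 2.15% of all genes called higher. Without WT NO replicate 3 the number was 9, in a fit that called 7.05% of all genes higher. Of the 4, Meox1 passed the filter only through the treated libraries. Col1a2, a chain of type I collagen, went from 0.743, 0.665 and 0.687 to 6.18, 6.73 and 4.63 CPM (3.06 ± 0.30 SE, adjusted p = 0.0101), and Meox1, a homeobox factor of somites, from 0, 0.0739 and 0.0312 to 1.8, 2.55 and 1.11 CPM (adjusted p = 0.0251). Sparcl1, a matrix protein of glia and vessels, rose from 0.849, 1.7 and 0.312 to 27.3, 28.9 and 23.2 CPM (4.81 ± 0.50 SE, adjusted p = 0.0101). The summed level of the 29 mesenchymal genes was 139 to 163 CPM in the untreated and 202 to 243 CPM in the treated libraries. Twist1, the most abundant of the factors, was at 51, 38.7 and 17.7 and 38.4, 37.9 and 40.6 CPM (adjusted p = 0.86). Of 39 genes of matrix and adhesion, 1 was called, Acan (aggrecan), which fell from 1.52, 2.07 and 2.44 to 0.195, 0.344 and 0.289 CPM (adjusted p = 0.0293), and of 21 contractile genes 1 fell, Ajuba (56.4, 54.3 and 58.4 to 21.8, 32.9 and 29.3 CPM, adjusted p = 0.0293). Amot (angiomotin), a junction protein that restrains the coactivator YAP, had the smallest adjusted p of the genes that fell (63.4, 45.6 and 56.5 to 14.9, 14.2 and 16.1 CPM, -1.87 ± 0.16 SE, adjusted p = 0.00634). Upk3b, a uroplakin of mesothelium, was listed at 0, 0 and 0.0312 CPM in the untreated libraries and 3.94, 14.9 and 1.49 CPM in the treated ones, a 10-fold spread among the treated (adjusted p = 0.025).

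Markers of other cell types were few. The 15 blood genes summed to 3.18 to 4.97 CPM and 4.53 to 5.59 CPM, the 10 oligodendrocyte genes to 2.55 to 6.96 CPM and 4.87 to 8.84 CPM, and the 16 endothelial genes to 23.5 to 50 CPM and 20.3 to 22.7 CPM in the WT NO and WT RA libraries. None of their 3, 3 and 5 members tested was called by edgeR, with 4 of the 11 at an unadjusted p under 0.05 and 3 called by DESeq2. Of 8 endoderm genes tested, none was called by edgeR, with 1 lower at an unadjusted p under 0.05 and by DESeq2, and the list summed to 99.0 to 162 CPM and 97.4 to 149 CPM. Of 12 neural crest genes, Tfap2b was the one called, with Sox10 at 0 to 0.0312 CPM in the untreated and 0 to 0.0973 CPM in the treated libraries. The part these cells may have in the other values was not tested.

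Of the genes of replication and mitosis, 6 fell and none rose in the fit of all 6 libraries. Of 22 genes of G2 and mitosis, 3 fell, against 1.56% of all genes tested. In 12 every treated library lay below every untreated one, against 15.2% of all genes. The median log2 fold change of the 22 was -0.42. Aurka, the spindle kinase, went from 118, 112 and 115 to 63.3, 50.9 and 58.4 CPM (-0.9997 ± 0.13 SE, adjusted p = 0.0163), and Cdc20, the activator of the anaphase ligase, from 161, 158 and 171 to 112, 97.9 and 96 CPM (adjusted p = 0.0342). Ccnb1 was at 100.4, 108 and 94.3 and 110.0, 106 and 93.8 CPM (adjusted p = 0.886). Of 21 S phase genes, Ccne1 (cyclin E1, 94.6, 84.5 and 45.1 to 33.2, 18.6 and 29.2 CPM, adjusted p = 0.04996), Cdc6 and Mcm4 fell, the others at adjusted p-values of 0.049 and 0.0382. Of 19 genes of G1 control and cycle exit, 2 rose beside the fall of Ccnd1, namely Cdkn1b (p27, 23.7, 23.5 and 22.6 to 50.9, 38.7 and 42.9 CPM, adjusted p = 0.0256) and Gadd45g (0.707, 0.924 and 1.34 to 3.5, 3.78 and 2.94 CPM, adjusted p = 0.0453). Without WT NO replicate 3, 11 of the G2 and mitosis genes and 6 of the S phase genes fell, and Bub1, a spindle checkpoint kinase, rose (adjusted p = 0.0395). In these p53-deleted cells 2 of 16 p53 target genes rose (Plk2 and Pmaip1) and 1 fell (Zmat3).

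Ribosomal protein mRNAs rose by small amounts in many members. Of 81 tested, 21 rose and none fell, 25.9% against 3.71% of all genes. In 65 every treated library lay above every untreated one, against 15.8% of all genes. The median log2 fold change of the 81 was 0.59, or 0.32 without TMM scaling. Rpl13a went from 1824, 1988 and 1886 to 4948, 3265 and 4148 CPM (1.12 ± 0.17 SE, adjusted p = 0.0259) and Rps29 from 2129, 2466 and 2449 to 4929.7, 4584 and 4253 CPM (0.97 ± 0.14 SE, adjusted p = 0.0214). These genes have many processed pseudogenes with near-identical sequence, so the split of reads between them is uncertain. Noncoding hosts of small nucleolar RNAs, whose transcripts belong to the same class of growth-regulated messages as ribosomal proteins, were among the leading genes, and Gas5 and Hoxaas2 were the 2 called of 6 tested on a list of noncoding RNAs of neural tissue and the Hox clusters. Gas5 rose from 220.4, 237 and 193 to 843, 717 and 758 CPM (1.83 ± 0.14 SE, adjusted p = 0.00325), Snhg1 from 339, 349 and 386 to 996, 964 and 918 CPM (1.42 ± 0.12 SE, adjusted p = 0.00634), and Snhg8 from 149, 150.1 and 153 to 334, 320.2 and 321 CPM (1.11 ± 0.11 SE, adjusted p = 0.0101). Polr1a, the large subunit of RNA polymerase I, which makes ribosomal RNA, fell from 58.9, 55.7 and 49.2 to 28.6, 24.8 and 24.6 CPM (-1.07 ± 0.14 SE, adjusted p = 0.0163). Of the 78 nuclear genes of oxidative phosphorylation none was called (12 had an unadjusted p under 0.05 with a rise and 7 with a fall, and DESeq2 called 5 and 3). Of the 13 mRNAs of the mitochondrial genome none was called either, with 7 higher at an unadjusted p under 0.05 and 6 called by DESeq2.

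Genes of glycolysis and low oxygen were higher, with 5 of 22 called higher, or 22.7% against 2.15% of all genes, and none lower. All 22 had a positive log2 fold change, against 7187 of all 14705 genes. The median was 0.89, or 0.62 without TMM scaling. Slc2a3, the glucose transporter GLUT3, rose from 161, 148 and 159.8 to 771, 404 and 537 CPM (1.87 ± 0.23 SE, adjusted p = 0.0157), Pgk1, a glycolytic kinase, from 649, 625 and 605 to 2381, 1079.6 and 1680.5 CPM (adjusted p = 0.0373), and Bnip3, a mitophagy receptor induced by low oxygen, from 93.6, 100.4 and 60.1 to 678, 229 and 415 CPM (adjusted p = 0.0293). Egln3, an oxygen-sensing hydroxylase, and Ndrg1 rose as well (adjusted p = 0.04996 and 0.0423). In these genes other than Ndrg1 the first treated library was the highest and the second the lowest, by up to 4-fold for Egln3.

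Of the stress lists, 5% of endoplasmic reticulum folding genes, 9.09% of ATF4 targets and 14.3% of immediate early genes were called, against 3.71% of all genes. Of 20 endoplasmic reticulum chaperones and targets of the unfolded protein response, Hyou1 fell (96.4, 113 and 131 to 64.7, 70.8 and 70.4 CPM, adjusted p = 0.0424), none rose, and the median log2 fold change was -0.35. Without WT NO replicate 3, 9 of the 20 fell and the median was -0.48, and DESeq2 called 3 lower. Hspa5 (BiP) was at 434, 484 and 343 and 293, 356 and 329 CPM (adjusted p = 0.224, and 0.0378 without WT NO replicate 3). Of 22 targets of ATF4, Vldlr rose (7.92, 6.13 and 6.78 to 22.6, 13 and 15.8 CPM, adjusted p = 0.038) and Gars, a tRNA synthetase, fell (151, 127 and 117 to 70.3, 85.2 and 80.3 CPM, adjusted p = 0.0412), against 2 higher and 6 lower without WT NO replicate 3. Faf2 itself was at 50.2, 38.8 and 36.8 and 35.5, 38.3 and 49.5 CPM (log2 fold change -0.03 ± 0.18 SE, adjusted p = 0.944). None of 21 sterol genes was called (1 each way at an unadjusted p under 0.05, and 1 higher by DESeq2), and none of 16 interferon and antigen presentation genes (2 and 2, and 1 and 1 by DESeq2) or of 19 DNA methylation and Polycomb genes (1 and 4, and 1 higher by DESeq2). Of 21 immediate early genes Klf2 and Klf6 rose and Egr1 fell (23.8, 26.9 and 15.7 to 9.97, 6.04 and 10.1 CPM, adjusted p = 0.0453).

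**Figure D4:**
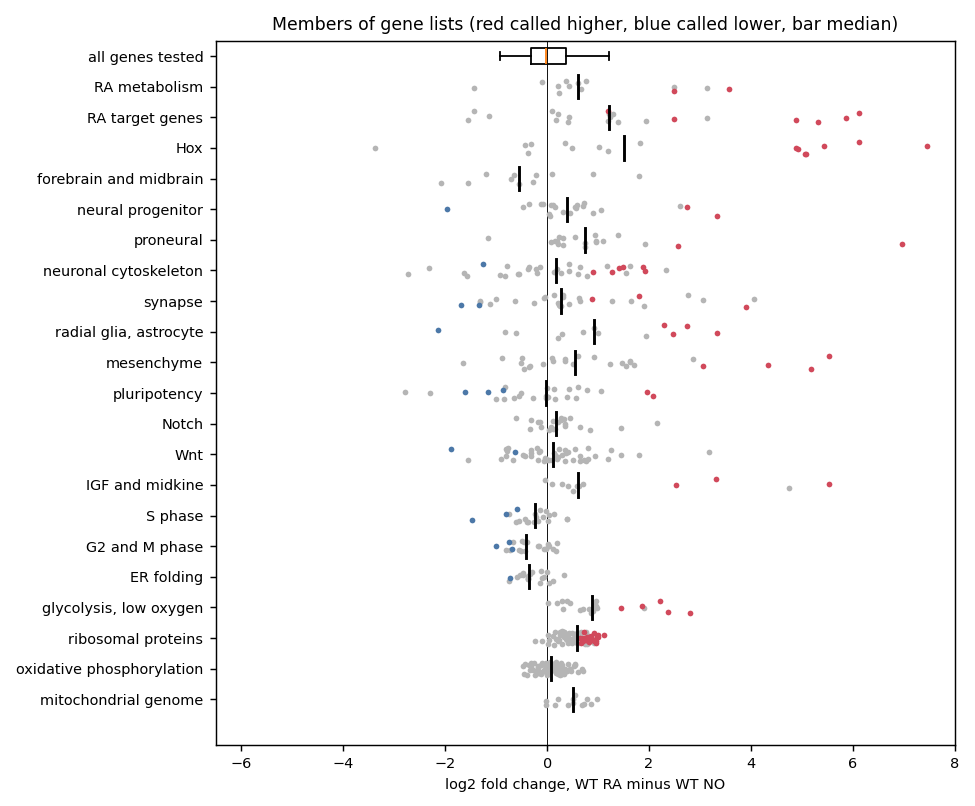
Log2 fold change of WT RA over WT NO (horizontal axis) for the tested members of 21 gene lists, 1 point a gene, with called genes in red (higher) and blue (lower) and a black bar at the median, above which a box and whiskers (quartiles, 5 to 95% of genes) show all 14705 genes tested. Glycolysis genes lie to the right with a median of 0.89, the called Hox genes lie far to the right but passed the filter only through the treated libraries, ribosomal proteins form a narrow group at 0.59, and G2 and M phase genes lie to the left at -0.42.

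The Faf2 KO libraries share none of the 6 libraries above and allow the genes called in wild type to be read in separate cells. Of the 316 genes that rose in wild-type cells, 285 had a positive log2 fold change in KO cells, against 7891 of all 14705 genes, and 139 lay above KO NO in all KO RA libraries, against 12.6% of all. Of the 229 that fell, 205 were negative in KO cells, against 6808 of all, and 161 lay below in every KO library, against 18%. Without KO RA replicate 3, which stood apart from its group, the means of the remaining KO libraries gave 255 of 316 positive, against 7020 of all 14705, and 206 of 229 negative, against 7671 of all. Igfbp5 (log2 fold change 7.28 in KO cells), Nr2f2 (5.82), Hoxb2 (5.49), T (-2.25) and Tgfb1 (-1.73) had the same sign as in wild type. Fbxo15 was at 10.3, 9.33 and 9.88 CPM in KO NO and 6, 8.55 and 72.1 CPM in KO RA. Its difference between the genotypes was -4.16 without KO RA replicate 3 (edgeR adjusted p = 0.00212, and 0.601 with it). Rpl13a (2689, 2732 and 1942 to 2374, 2584 and 8710 CPM) and Snhg8 (119, 130 and 88.3 to 98.8, 95.9 and 549 CPM) lay above KO NO only in KO RA replicate 3. Nkx1-2 was at 1.26, 1.63 and 0.838 CPM in the KO NO and 1.44, 1.33 and 1.29 CPM in the KO RA libraries (0.13 in KO cells), and the difference between the genotypes was 3.59 ± 0.53 SE (adjusted p = 0.0825, and 0.0191 without KO RA replicate 3). Over all 12 libraries, no gene had a response that differed between the genotypes at an adjusted p under 0.05 with edgeR, of 16502 tested, while 1423 had an unadjusted p under 0.05. In simulated counts, the test of this difference recovered 17% of genes changed by 2 on the log2 scale and 78% of those changed by 4. The lack of calls therefore does not show equal responses. DESeq2 called 232, and edgeR without KO RA replicate 3 called 232 as well.

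**Figure D5:**
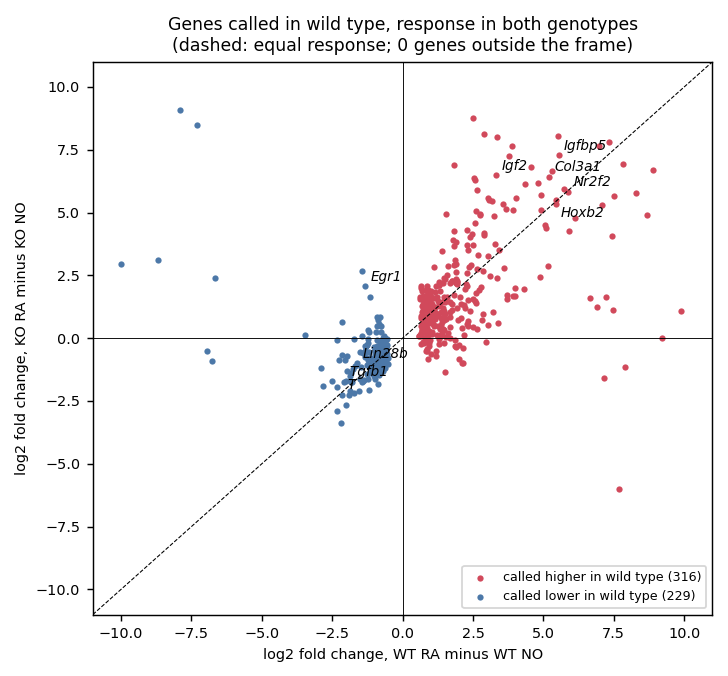
Log2 fold change with RA in wild-type cells (horizontal axis) against that in Faf2 KO cells (vertical axis) (both fitted changes, which are no measure of size for genes with few or no counts in one group) for the 316 genes called higher (red) and 229 called lower (blue) in wild type, with a dashed line at equal response. Most genes lie in the upper right and lower left, 285 of 316 and 205 of 229, and Egr1 is among those in the upper left.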

How the data were processed

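Gene counts of the 6 wild-type libraries were taken from the table of the whole series. Per the study's methods, the authors aligned polyA RNA-Seq reads to GRCm39 with STAR and quantified them with Salmon in the nf-core/rnaseq pipeline, and the deposited values are estimated counts scaled from TPM to the library totals. They were rounded to whole numbers. Genes were filtered with filterByExpr, scaled by TMM and tested with edgeR's quasi-likelihood test (edgeR 4.0.16, R 4.3.3, robust), on the 6 wild-type libraries alone, with no block, and p-values were adjusted by Benjamini-Hochberg over all 14705 genes at a threshold of 0.05. The test is two-sided. The p-values measure the spread between passages of 1 line. Scaling from TPM removes gene length from the counts, and TMM assumes that most genes did not change, while the share of the largest genes rose with RA. DESeq2 1.42.0, limma 3.58.1 (voom) and the other settings of the closing section were alternatives. The fits were tested on simulated data. Ratios of genes with 1 to 3 counts in a group are given with 95% counting intervals, and genes with none against a floor of 3 counts over the group, for counting error only.

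The named genes are, in each direction, the 15 of smallest adjusted p, the 15 of largest fold change at a mean of at least 5 CPM in the higher group, the called members of each of 46 lists with up to 6 others of high level, members of short lists, and a panel of markers used in the study. A few genes that the rule names are not reported here. Others are said to be chosen after their values were seen. The members and lists were chosen with earlier results of these data known. Same-numbered libraries were not paired by the labels. Libraries of Faf2 KO cells were used for the sign of each change and in a fit of all 12 libraries for the difference of responses. Promoters and mature microRNAs are RefSeq's, and 3′ UTRs are of GENCODE canonical transcripts in GRCm39.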

Additional observations from a re-analysis of the deposited data

Results flagged for a closer look

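For Egr1, an immediate early transcription factor, the WT RA libraries all lay below the WT NO libraries while the KO RA libraries all lay above the KO NO libraries. Its level was 23.8, 26.9 and 15.7 CPM in WT NO and 9.97, 6.04 and 10.1 CPM in WT RA, against 7.82, 8.29 and 5.7 CPM in KO NO and 52.6, 26.1 and 13.2 CPM in KO RA. The difference of the 2 responses was 3.43 ± 0.63 (log2, KO minus WT, SE, edgeR adjusted p = 0.144), and its adjusted p without KO RA replicate 3 was 0.0102.

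For Nes, the filament protein of neural progenitors, the groups lay apart in the same opposed way. Its level was 41.6, 45.6 and 61.9 CPM in WT NO and 34.5, 40.4 and 41.3 CPM in WT RA, against 35, 31.2 and 37.2 CPM in KO NO and 64.2, 56.2 and 75 CPM in KO RA. The difference of the 2 responses was 1.28 ± 0.29 (log2, KO minus WT, SE, edgeR adjusted p = 0.286), and its adjusted p without KO RA replicate 3 was 0.0425. Neither gene passed the test of the difference with all 12 libraries, and no cause was tested.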

How the results depend on the processing

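The counts of 316 genes higher and 229 lower were 904 and 779 with DESeq2 on the same 6 libraries, 300 and 214 with DESeq2 size factors in edgeR, 264 and 1302 without TMM scaling, 272 and 167 with limma-voom, 262 and 182 with a mean of at least 10 counts, 251 and 171 with no filter beyond 1 count, and 53 and 14 when all 12 libraries shared one fit. Leaving out 1 library gave 7 to 1075 genes higher and 0 to 1100 lower, and the highest counts came without WT NO replicate 3, where 315 of the 316 and 228 of the 229 genes were called again. With the replicate number as a block the counts were 4 and 0. The numbers do not pair the samples: the deviations of same-numbered libraries correlated at 0.03, -0.08 and -0.12. For the difference in response between KO and WT, DESeq2 called 232 genes and edgeR without KO RA replicate 3 called 232, against 0 in the other settings. Among the named genes 2 changed sign: Cdh2 at -0.204 without TMM scaling, and, with 1 library left out, Cdh2 (-0.0328 to 0.135) and Faf2 (-0.182 to 0.116), none of them called in any of these. The list medians of hindbrain and cord factors, neuronal cytoskeleton, Notch, Wnt, TGF-beta and BMP, cadherin, oxidative phosphorylation, sterol and endothelial genes turned negative without TMM scaling. The cause of these shifts was not tested. With 3 libraries a group the smallest change called was 0.52 on the log2 scale, and genes under about 0.1 CPM had 3 counts or fewer.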

Other observations

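Other genes among those called, picked after their values were seen, belonged to no list. Of 15 small nucleolar RNA host genes named Snhg that were tested, 5 rose and none fell, with a median log2 fold change of 0.68. Zfas1, another such host, rose from 54.4, 72.9 and 109 to 431, 408 and 347 CPM (2.33 ± 0.26 SE, adjusted p = 0.011), and Tpt1, a translationally controlled protein, from 637, 601 and 784 to 1212, 1153 and 1036 CPM (adjusted p = 0.0422). Of the 7 subunits of RNA polymerase I and III named Polr1, Polr1a, Polr1b and Polr1e fell and Polr1c rose (74.9, 75.9 and 98.5 to 143, 157 and 141 CPM, adjusted p = 0.0345). Genes that fell also included Mdn1 (39.5, 45.8 and 28.1 to 17.9, 20.7 and 17.3 CPM, adjusted p = 0.0411), Pdcd11 (67.1, 64.9 and 53.5 to 36.7, 41.1 and 37.6 CPM, adjusted p = 0.0422) and Ftsj3 (134, 129 and 141 to 89.9, 87.5 and 92.2 CPM, adjusted p = 0.0388), which act in ribosome assembly and were picked because they fell.

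Among genes of the lysosome, picked because they rose, Lamp2, a lysosomal membrane protein, went from 39.6, 38.8 and 44.9 to 72.2, 87.4 and 67.2 CPM (adjusted p = 0.0291) and Scarb2, a receptor of the same membrane, from 13.4, 14.1 and 10.7 to 21.1, 25.8 and 25 CPM (adjusted p = 0.0382). Flcn and its partner Fnip1, which regulate signalling at the lysosome, rose as well (adjusted p = 0.0259 and 0.011). Of 16 genes of the proton pump named Atp6v, 3 rose and 1 fell. These genes were chosen for how they moved, so their number is a description and was not tested.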
